A study of Mus musculus with 8 samples.

Results

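The sirtuins are the family of enzymes that remove acetyl and other acyl groups from proteins and consume nicotinamide adenine dinucleotide (NAD) with each reaction. The mouse has 7 sirtuin genes, *Sirt1* to *Sirt7*, and all 7 were found by their symbols among the 24552 genes of the lacrimal gland (LG) count table. The members are set by gene family and symbol, and no threshold on their levels was used. Of these 7, 6 were counted often enough to be tested between diets and *Sirt4* was not.

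The libraries came from exorbital LGs, the glands that secrete the watery part of tears, of female C57BL/6J mice. The mice were fed ad libitum (AL, *n* = 4) or received a 40% caloric restriction (CR, *n* = 4). Restriction began when the mice were 6 to 7 months old and was kept up for 4 months, so that all mice were 10 to 11 months old when the LGs were taken. The labels name no transgene or drug. The study's methods describe more than 1 cohort of mice on different chow and a single evening meal for CR mice, and the labels do not say from which cohort a library came. RNA was counted from the 3′ ends of transcripts, and levels are given as CPM, the usual unit of counts relative to library size, after scaling by the relative log expression (RLE) method of DESeq2. Libraries are named by diet and replicate number.

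Because sirtuins need NAD, their activity is thought to follow the nutritional state of a cell, and the family has long been studied as a possible mediator of the effects of CR. Its members work in different places. SIRT1, SIRT6 and SIRT7 are found in the nucleus, where they act on transcription factors and chromatin, on telomeres and DNA repair, and on the nucleolus, respectively. SIRT2 is mainly cytoplasmic and deacetylates tubulin. SIRT3, SIRT4 and SIRT5 are mitochondrial, and act on metabolic enzymes. RNA levels do not measure enzyme activity, NAD or protein, none of which were analysed here.

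The stretches upstream of *Sirt1* and *Sirt2* are shown because SIRT1 is among the sirtuins tied to the circadian clock, whose genes differed between the diets, and *Sirt2* was the most counted member. RefSeq promoter windows on GRCm38.p6 hold 250 bases before and 50 after a transcription start. All 7 sirtuins matched, in 9 of 32851 windows, and the 250 bases upstream of the start are printed 5′ to 3′ on the strand of the gene. The *Sirt1* stretch lies at chr10:63339036-63339285 on the minus strand, inside the longer *Sirt1* gene that GENCODE draws, and capitals mark the E-box CACGTG, the motif bound by the CLOCK and BMAL1 proteins. The *Sirt2* stretch lies at chr7:28766502-28766751 on the plus strand, and capitals mark CCAAT, a common promoter element.
Sirt1: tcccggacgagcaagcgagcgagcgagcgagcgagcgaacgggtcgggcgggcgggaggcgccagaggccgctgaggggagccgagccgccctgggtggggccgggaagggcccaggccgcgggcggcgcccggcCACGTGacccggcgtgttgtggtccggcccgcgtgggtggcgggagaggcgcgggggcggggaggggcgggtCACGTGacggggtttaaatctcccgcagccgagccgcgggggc
Sirt2: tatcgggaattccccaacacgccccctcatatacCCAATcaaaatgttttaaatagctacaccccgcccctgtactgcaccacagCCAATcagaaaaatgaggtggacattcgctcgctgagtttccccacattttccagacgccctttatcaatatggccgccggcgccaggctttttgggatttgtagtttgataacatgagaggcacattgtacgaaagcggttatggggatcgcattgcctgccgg
The *Sirt1* window held 2 E-boxes, which begin 115 and 43 bases before the start, and the windows of the other 6 sirtuins held none. Among all windows, 7.15% held this motif and 0.594% held at least 2, searched on both strands. The *Sirt2* window held 2 CCAAT matches and a *Sirt3* and a *Sirt5* window 1 each, where 37.4% of all windows held this element and 11.7% held at least 2. The cyclic AMP response element TGACGTCA and the forkhead motif TGTTTAC, present in 1.79% and 3.65% of windows, were found in none of the sirtuin windows. These matches describe letters in a window and were not tested for binding.

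The libraries held between 12051881 and 22156511 counts, and a floor of 3 counts corresponded to between 0.152 and 0.231 CPM. Reads were counted without molecular identifiers, so the floor reflects counting error alone. In each library the 10 genes with most counts took between 69.4 and 73.4% of its counts in AL and between 62.4 and 68.3% in CR. Markers of exocrine epithelium summed to between 1790 and 2200 CPM in AL and between 1660 and 1930 CPM in CR, and all 11 of them in the table were detected, with 1 called higher and 1 called lower. Parotid gland secretion markers summed to between 21600 and 58700 CPM in AL and between 44300 and 313000 CPM in CR, and 3 of 8 were called higher in CR. White adipose markers summed to between 9.55 and 20.2 CPM in AL and between 25.2 and 103 CPM in CR (1 of 6 tested called higher). Leukocyte markers summed to between 55.4 and 204 CPM in AL and between 28.4 and 44.6 CPM in CR, with none of the 4 tested called. Skeletal muscle markers summed to between 1.53 and 12 CPM in AL. In CR replicates 1 to 4 they summed to 3.47, 61.5, 4.89 and 45.1 CPM, with none called. Among all genes tested, 1.2% were called higher and 0.785% lower in CR. No marker was at 0 in every library. The part of these differences in the sirtuin values was not tested, and that of the parotid markers cannot be told apart from diet.

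The sirtuins together made up a small share of LG RNA on both diets. Their summed level was 36.8 ± 3.84 CPM in AL and 35.4 ± 5.77 CPM in CR (SD, *n* = 4 each), with single libraries between 30.4 and 43.5 CPM. *Sirt1*, *Sirt2* and *Sirt7* supplied between 80.8 and 89.9% of this sum in every library. Over the 8 libraries, *Sirt2* was the most counted member, followed by *Sirt7*, *Sirt1*, *Sirt3*, *Sirt6*, *Sirt5* and *Sirt4*. None of the 6 sirtuins tested was called different between CR and AL, as shown for each gene next. In bulk RNA, fewer cells of a type and less RNA per cell cannot be told apart, and this holds for every level given here.

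**Figure D1:**
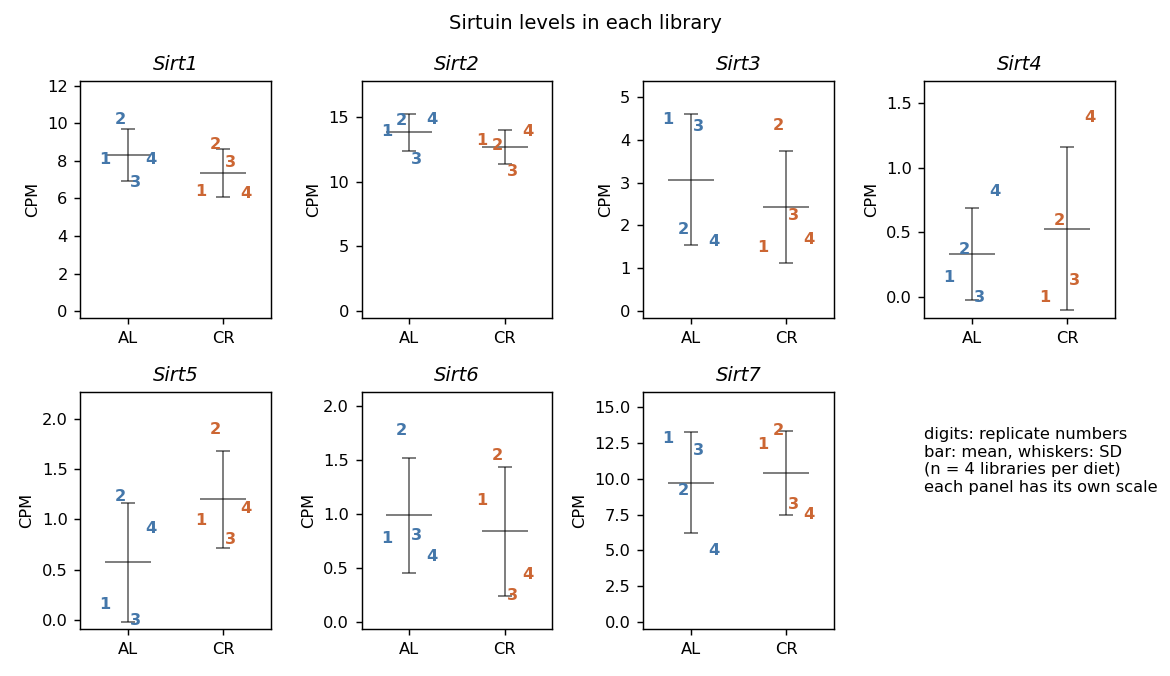
Level of each sirtuin in CPM (vertical axis, a separate scale per gene starting near 0) in the 4 AL (blue) and 4 CR (orange) libraries. Digits are replicate numbers, the horizontal bar is the mean and the whiskers are the SD, and in all 7 panels the libraries of the 2 diets overlap.

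*Sirt1* (Gene ID 93759; chromosome 10, 63319005 to 63381704 of GRCm38, minus strand) encodes a nuclear deacetylase of transcription factors such as p53 and the FOXO family. Its level was 8.09, 10.2, 6.85 and 8.07 CPM in AL replicates 1 to 4 and 6.37, 8.88, 7.93 and 6.28 CPM in CR replicates 1 to 4. The highest library was AL 2, and 2 CR libraries lay below every AL library while the other 2 lay within the AL range. Means were 8.3 ± 1.38 CPM in AL and 7.36 ± 1.26 CPM in CR (SD, *n* = 4 each). CR differed from AL by a log2 fold change of -0.17, with a standard error of 0.22 and a 95% interval from -0.66 to 0.31. By the quasi-likelihood F test of edgeR, adjusted by Benjamini and Hochberg's method, the adjusted p was 0.776. The interval corresponds to a fold between 0.635 and 1.24, so that a rise of 1.5-fold lay outside it and a fall of that size did not.

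*Sirt6* (Gene ID 50721; chromosome 10, 81621785 to 81627797, minus strand) encodes a chromatin-bound deacetylase with roles in telomere upkeep and DNA repair. It was counted 10, 29, 11 and 12 times in AL replicates 1 to 4 and 16, 26, 4 and 8 times in CR replicates 1 to 4. In CPM this was 0.771, 1.78, 0.802 and 0.609 in AL and 1.13, 1.54, 0.248 and 0.444 in CR. Replicate 2 was the highest library on both diets, and 2 CR libraries lay below every AL library. Means were 0.99 ± 0.533 CPM in AL and 0.841 ± 0.601 CPM in CR (SD, *n* = 4 each). This gave a log2 fold change of -0.24 ± 0.63 (SE), with an interval from -1.62 to 1.14 and an adjusted p of 0.906 by the same edgeR test. The sign rested on single libraries, since the log2 fold change was 0.21 without AL replicate 2 and 0.07 without CR replicate 3.

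*Sirt7* (Gene ID 209011; chromosome 11, 120618372 to 120625240, minus strand) encodes the nucleolar sirtuin, which promotes transcription of ribosomal RNA genes. Its level was 12.8, 9.2, 12.0 and 5.02 CPM in AL replicates 1 to 4 and 12.4, 13.4, 8.24 and 7.5 CPM in CR replicates 1 to 4. AL 4 was the lowest and CR 2 the highest library, and 3 of the 4 CR libraries lay within the AL range. Means were 9.74 ± 3.5 CPM in AL and 10.4 ± 2.96 CPM in CR (SD, *n* = 4 each), and the difference was 0.1 ± 0.3 (SE) in log2 units. The interval ran from a fold of 0.676 to one of 1.69, and the adjusted p was 0.923 by the same edgeR test. Without AL replicate 4 or CR replicate 2 the log2 fold change was -0.13 or -0.04. Exons of *Sirt7* share 124 bases with *Mafg* on the same strand, none of them in the last 500 bases of *Sirt7*, where 3′ reads are expected.

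*Sirt2* (Gene ID 64383; chromosome 7, 28766735 to 28788661, plus strand) encodes the mainly cytoplasmic tubulin deacetylase. Relative to its mean, its spread within a diet was the lowest of the family, with 13.9, 14.7, 11.7 and 14.8 CPM in AL replicates 1 to 4 and 13.2, 12.8, 10.8 and 13.9 CPM in CR replicates 1 to 4. Replicate 3 was the lowest library on both diets, and 1 CR library lay below the AL range. Means were 13.8 ± 1.42 CPM in AL and 12.7 ± 1.31 CPM in CR (SD, *n* = 4 each). In the fit, the log2 fold change was -0.12 ± 0.18 (SE) with an adjusted p of 0.811 by the same edgeR test. The interval from a fold of 0.706 to one of 1.2 was the narrowest of the family, and a change of 1.5-fold lay outside it in either direction.

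*Sirt3* (Gene ID 64384; chromosome 7, 140863666 to 140882309, minus strand) encodes the main deacetylase of the mitochondrial matrix. Its level was 4.47, 1.9, 4.3 and 1.62 CPM in AL replicates 1 to 4 and 1.49, 4.32, 2.23 and 1.67 CPM in CR replicates 1 to 4. The values formed a high group of AL 1, AL 3 and CR 2 and a low group of the other 5 libraries, so that the spread within a diet exceeded the difference between diets. Means were 3.07 ± 1.52 CPM in AL and 2.43 ± 1.3 CPM in CR (SD, *n* = 4 each). The difference was -0.33 ± 0.46 (SE) as a log2 fold change, with an interval from -1.34 to 0.68 and an adjusted p of 0.8 by the same edgeR test. Its size rested on single libraries, being -0.09 without AL replicate 1, -0.12 without AL replicate 3 and -0.75 without CR replicate 2, and it was -0.02 by limma voom. The last 500 bases of *Sirt3* overlap exons of *Ric8a* on the other strand over 418 bases. *Ric8a* itself was at 6.78 ± 2.13 CPM in AL and 7.04 ± 0.932 CPM in CR (SD, *n* = 4 each). Whether the authors' counting used strand is not given in the sources used here, so that reads from this overlap may have been counted for either gene or left out.

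*Sirt4* (Gene ID 75387; chromosome 5, 115478010 to 115484725, minus strand) encodes a mitochondrial sirtuin with weak deacetylase activity that restrains glutamate use. It was counted 2, 6, 0 and 16 times in AL replicates 1 to 4 and 0, 10, 2 and 25 times in CR replicates 1 to 4, 61 counts in all. Means were 0.333 ± 0.353 CPM in AL and 0.526 ± 0.629 CPM in CR (SD, *n* = 4 each). An exact two-sided permutation test of the means gave p = 0.686, where the smallest p that 4 against 4 libraries allow is 0.0286. The 4 libraries at 0 to 2 counts were at or under the floor of 3 counts, so that *Sirt4* was not shown to be absent there.

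*Sirt5* (Gene ID 68346; chromosome 13, 43365496 to 43395203, plus strand) encodes the mitochondrial enzyme that removes succinyl and malonyl groups. It was counted 2, 20, 0 and 18 times in AL replicates 1 to 4 and 14, 32, 13 and 20 times in CR replicates 1 to 4. In CPM this was 0.154, 1.23, 0 and 0.913 in AL and 0.99, 1.89, 0.805 and 1.11 in CR. The 2 AL libraries at the bottom lay below every CR library, and the other 2 lay among them. Means were 0.574 ± 0.591 CPM in AL and 1.2 ± 0.48 CPM in CR (SD, *n* = 4 each). The log2 fold change of 1.01 ± 0.8 (SE) was the highest of the 6, but its interval ran from -0.73 to 2.75 and the adjusted p was 0.588 by the same edgeR test. An exact two-sided permutation test of the mean CPM gave p = 0.229. The size rested on single libraries, being 0.62 without AL replicate 3 and 1.64 without AL replicate 2.

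Counts of *Sirt4* and *Sirt5* moved with sequencing depth. The 4 deepest libraries, AL 2, AL 4, CR 2 and CR 4, held at least 16070697 counts and the other 4 at most 14539103. *Sirt4* lay between 0.368 and 1.39 CPM in the deep libraries and between 0 and 0.154 CPM in the others, without overlap. *Sirt5* lay between 0.913 and 1.89 CPM in the deep libraries and between 0 and 0.99 CPM in the others. Both values are already scaled for depth. Each diet had 2 deep and 2 shallow libraries, and whether depth went with a cohort of mice cannot be told from the labels. Within the shallow libraries, *Sirt5* was at 0.154 and 0 CPM in AL and at 0.99 and 0.805 CPM in CR, while within the deep ones the diets overlapped. With the log2 library total as a covariate, chosen after the data were seen, the log2 fold change of *Sirt5* was 1.28 and the adjusted p 0.351 by the same edgeR test.

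**Figure D2:**
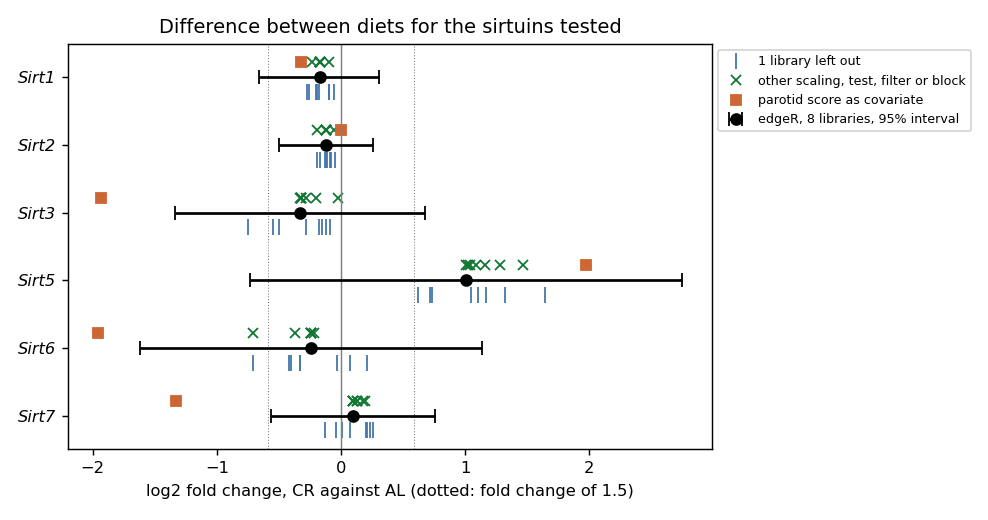
Log2 fold change of CR against AL (horizontal axis) for the 6 sirtuins tested. Black points with bars are the edgeR values with 95% intervals, blue ticks leave out 1 library each, crosses are other scalings, tests, filters, the replicate block or the library total, squares add the parotid score as a covariate and dotted lines mark a 1.5-fold change, and the 6 black intervals all include 0.

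Read together, 0 of the 6 sirtuins tested were called by edgeR's quasi-likelihood test, for which the adjusted p had to be under 0.05 and the fold 1.5 or more. Of the 11211 genes tested, 1.98% were called, 1.2% higher and 0.785% lower in CR. At an unadjusted p under 0.05, the count was also 0 of 6, beside 16.7% of all genes tested. DESeq2 and limma voom likewise called none, and none had an unadjusted p under 0.05 with either. In 0 of 7 sirtuins did the CR libraries lie wholly above or below the AL libraries, which was the case for 9.79% of genes tested. In the fit, 4 of 6 sirtuins were lower in CR and their median was -0.15 on the log2 scale, where 48.9% of all genes tested were lower and their median was 0.011. With 6 genes, these shares are close to the background. Scaling by total counts or by the TMM factors of edgeR left the sign of all 6 as it was.

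The mean level of markers of parotid secretion, a log2 CPM score of 3.72 to 8.87 in AL and 10.3 to 13.7 in CR, did not overlap between the diets. With this score in the model, *Sirt7* had a log2 fold change of -1.33 ± 0.37 (SE) and *Sirt3* one of -1.93 ± 0.72 (SE). Their adjusted p-values were 0.283 and 0.391 by the edgeR test named above. Under the same covariate *Sirt1* was at -0.32, *Sirt2* at 0, *Sirt5* at 1.97 and *Sirt6* at -1.96 on the log2 scale, and none was called. Because diet and score moved together, their parts cannot be told apart, and the values with the covariate rest on differences within a diet.

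The order of the levels had 2 steps that exceeded the spread over libraries. *Sirt1* was higher than *Sirt3* in 8 of 8 libraries, by 1.59 ± 0.66 (SD, *n* = 8) on the log2 scale of CPM. *Sirt3* was higher than *Sirt6* in 8 of 8 libraries, by 1.51 ± 0.93 (SD, *n* = 8). Both gave p = 0.00781 in an exact two-sided sign-flip permutation test, the smallest that 8 libraries allow, and an adjusted p of 0.0234 over the 6 neighbouring pairs. Among the 3 most counted members, *Sirt2* was higher than *Sirt7* in 6 of 8 libraries by 0.45 ± 0.55 (exact permutation p = 0.0391, adjusted 0.0781) and *Sirt7* was higher than *Sirt1* in 6 of 8 by 0.31 ± 0.54 (exact permutation p = 0.148, adjusted 0.178). At the low end, *Sirt6* and *Sirt5* did not differ beyond their spread, with *Sirt6* higher in 4 of 8 libraries (exact permutation p = 0.641), nor did *Sirt5* and *Sirt4*, with *Sirt5* higher in 5 of 8 (exact permutation p = 0.0938, adjusted 0.141). Without AL replicate 1, 2 or 3, *Sirt5* ranked above *Sirt6*, and the lower step past the threshold was *Sirt3* over *Sirt5*.

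These levels are counts of 3′ ends and were not divided by transcript length. Divided by exon length in kilobases, *Sirt2* remained first at 2.63 CPM per kilobase, followed by *Sirt7* at 1.96, *Sirt1* at 1.47, *Sirt3* at 0.46, *Sirt6* at 0.329, *Sirt4* at 0.179 and *Sirt5* at 0.146. On that scale the step from *Sirt1* to *Sirt3* had an exact permutation p adjusted to 0.0469 and the step from *Sirt3* to *Sirt6* one of 0.309. Against all genes tested, whose median level was 6.44 CPM, *Sirt2* lay above 69.1% of genes, *Sirt7* above 62.3% and *Sirt1* above 55.5%. *Sirt3* lay above 27.5% of genes, *Sirt6* above 5.26% and *Sirt5* above 4.8%. The nuclear *Sirt1* and *Sirt7* and the cytoplasmic *Sirt2* were thus in the middle of the range and the mitochondrial members and *Sirt6* below it.

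The members differed in how evenly they were expressed within a diet. For *Sirt2*, the SD between libraries of a diet was 10.3% of the mean, where counting error alone would give 6.92%. *Sirt1* varied by 16.9% against 9.0%. *Sirt7* was counted more often than *Sirt1*, 1249 against 1005 times in all, yet varied by 32.2% against a counting error of 8.07%, a ratio of 3.99 and the highest of the family. *Sirt3* varied by 51.5% against 15.5%, *Sirt5* by 60.7% against 26.1%, *Sirt6* by 62.0% against 26.5% and *Sirt4* by 119% against 36.4%. Counting error is a lower bound for separate mice, and 99.1% of all genes tested exceeded it, with a median ratio of 2.87. Set beside genes tested whose mean CPM was within 2-fold, the spread of *Sirt2* was above that of only 3.95% of 3669 genes and that of *Sirt1* above 15% of 4094. *Sirt7* varied more than 75.4% of its 3929 genes, *Sirt3* more than 78.1%, *Sirt6* more than 67.6% and *Sirt5* more than 64.9%. This is a description with no test.

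**Figure D3:**
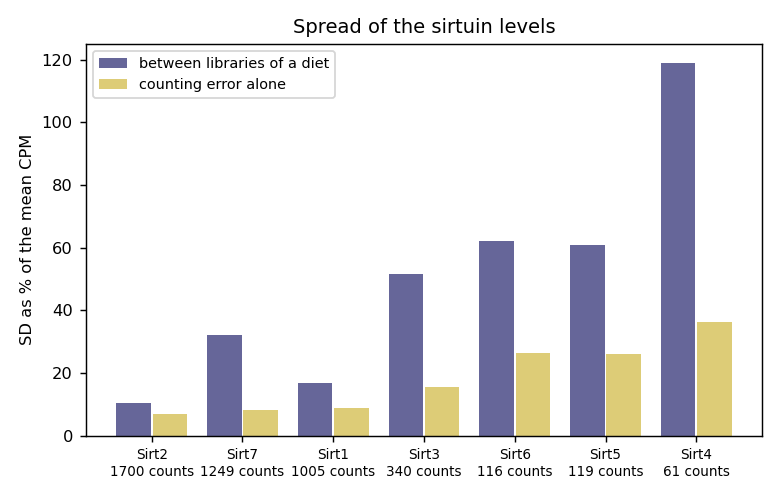
SD of each sirtuin between the libraries of a diet (dark bars) and the SD that counting error alone would give (light bars), both as a percentage of the mean CPM on the vertical axis. Genes run from the most to the least expressed with their total counts below, and the dark bar is the higher one for all 7, from 10.3% for *Sirt2* to 119% for *Sirt4*.

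Among 4239 genes with a mean of at least 10 CPM, those whose log2 CPM followed *Sirt2* most closely over the 8 libraries were *Cab39l*, with a Pearson r of 0.965 and a Spearman rho of 1, *Ap1ar*, with 0.962 and 0.905, and *Dpy30*, with 0.913 and 0.905. Without CR 3 and AL 3, the libraries farthest from the median of *Sirt2*, r was 0.953, 0.877 and 0.707. These are descriptions over libraries that share depth and diet, and 17.4% of the candidates had an r above 0.5.

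Genes that make or use NAD were next examined, in lists of the pathway taken whole. NAD is recycled from nicotinamide by NAMPT and the NMNAT enzymes, made anew from tryptophan, and consumed by PARP enzymes and by CD38 in competition with sirtuins. Of 19 NAD synthesis genes, 10 were tested and none was called, 6 being higher and 4 lower in the fit with a median log2 fold change of 0.11. None had an unadjusted p under 0.05, where 16.7% of all genes tested had such a p and 1.98% were called. Most of those not tested belong to the route from tryptophan, such as *Ido1*, *Tdo2*, *Kmo* and *Qprt*.

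*Nampt*, the rate-limiting enzyme of NAD recycling, measured 8.4, 12.3, 13.6 and 12.4 CPM in the AL libraries (replicates 1 to 4) and 13.2, 15.8, 17.1 and 14.2 CPM in the CR libraries. All 4 CR libraries were above 3 of the AL libraries, and AL 3 lay among the CR libraries. Its log2 fold change was 0.37 ± 0.2 (SE) with an adjusted p of 0.396 by edgeR's quasi-likelihood test. *Nmnat3* and *Nadsyn1* had log2 fold changes of 0.64 and -0.32, with adjusted p of 0.662 and 0.779 by the same edgeR test.

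Of 10 genes that consume NAD or remove nicotinamide, 6 were tested and none was called, with 2 higher, 4 lower and a median log2 fold change of -0.28. At an unadjusted p under 0.05, 1 was higher and 1 was lower, where 16.7% of all genes tested had such a p and 1.98% were called. *Parp1*, the main poly(ADP-ribose) polymerase, measured 43.6, 40.7, 24.4 and 24.8 CPM in the AL libraries (replicates 1 to 4) and 21.4, 20.4, 19.3 and 24.5 CPM in the CR libraries. The AL libraries fell into a high and a low pair, and only CR 4 reached the low pair. The log2 fold change was -0.64 ± 0.22 (SE) with an adjusted p of 0.153 by edgeR's quasi-likelihood test. *Cd38*, an NAD glycohydrolase of immune and other cells, was highest in CR 2 and CR 4, the libraries with most muscle marker RNA, a relation that was not tested. It was at 1.07 ± 0.207 CPM in AL and 2.39 ± 1.1 CPM in CR (SD, *n* = 4 each), with a log2 fold change of 1.15 ± 0.44 (SE). Its adjusted p was 0.204 by the same edgeR test, and that of *Art3* (log2 fold change 1.55 ± 0.8, SE) was 0.363.

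Of 20 genes that regulate SIRT1 or encode proteins it acts on, 17 were tested and 4 were called, 2 higher and 2 lower in CR, beside 1.98% of all genes tested. The 4 were 3 clock genes and *Ppargc1a*. The list was chosen with earlier results of these data known, so the count does not test whether SIRT1 partners are called more often. The list median was 0.08, where the median of all genes was 0.011. SIRT1 binds the CLOCK and BMAL1 complex and deacetylates PER2, and the complex drives *Nampt*. The promoter window of *Nampt*, searched in the same way, held no E-box CACGTG, and binding was not tested.

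*Per2*, a repressor of the clock, measured 1.31, 7.3, 2.77 and 5.28 CPM in the AL libraries (replicates 1 to 4) and 16.8, 24.6, 29.3 and 33.9 CPM in the CR libraries. Every CR library was above every AL library. The log2 fold change was 2.63 ± 0.42 (SE) with an adjusted p of 0.00933 by edgeR's quasi-likelihood test. *Arntl*, which encodes BMAL1, was at 6.32, 4.66, 1.24 and 4.41 CPM in AL and at 0, 0, 0.681 and 0.0555 CPM in CR, with a log2 fold change of -4.44 ± 0.91 (SE) and an adjusted p of 0.0334 by the same edgeR test. The CR libraries held 0, 0, 11 and 1 counts of *Arntl*, so that 3 of the 4 were under the floor and the fold is not well determined, being -7.21 without CR replicate 3. *Clock* was at 27.7, 19.2, 26.2 and 21.2 CPM in AL and at 13.8, 11.8, 15.2 and 9.61 CPM in CR, with a log2 fold change of -0.9 ± 0.2 (SE) and an adjusted p of 0.0436 by the same edgeR test. For both, all CR libraries lay below all AL libraries. *Sirt1* had overlapping libraries and was not called, and a link to its E-boxes was not tested.

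*Ppargc1a*, a coactivator of mitochondrial genes that SIRT1 deacetylates, measured 5.93, 3.31, 2.04 and 0.66 CPM in the AL libraries (replicates 1 to 4) and 23.6, 32.1, 25.6 and 3.44 CPM in the CR libraries. CR 4 lay within the AL range and the other 3 CR libraries were above it. The log2 fold change was 2.85 ± 0.66 (SE) with an adjusted p of 0.0497 by edgeR's quasi-likelihood test, close to the threshold. *Foxo1*, a fasting-responsive transcription factor, was at 17.3, 17.7, 14.9 and 16.6 CPM in AL and at 25.6, 25.5, 41.4 and 14.8 CPM in CR. CR 4 was the lowest of its 8 libraries and the other 3 CR libraries the highest, and the log2 fold change of 0.69 ± 0.26 (SE) had an adjusted p of 0.196 by the same edgeR test. Without CR replicate 4 it was called (0.89, adjusted p = 0.0244 by edgeR), and without CR replicate 3 it was 0.41. *Ccar2*, which encodes a SIRT1 inhibitor, had a log2 fold change of -0.34 and an adjusted p of 0.853 by the same edgeR test, and *Foxo3* was not tested at 40 counts in all.

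Most calls of the SIRT1 partners were close to the threshold. Their folds kept their direction when any 1 library was left out, but not all did with the parotid score in the model. *Per2* was called without any 1 library. *Ppargc1a* was not called without any one of the libraries other than CR 4, with log2 fold changes of 2.49 to 3.42 and adjusted p of 0.063 to 0.158 by the same edgeR test, nor with TMM factors (adjusted p = 0.0501). *Clock* was not called without any one of the libraries other than CR 4, with log2 fold changes of -1 to -0.81 and adjusted p of 0.0589 to 0.145 by edgeR. It was also not called with total counts (-0.83, adjusted p = 0.119 by edgeR) or by limma voom (-0.77, adjusted p = 0.0517). *Arntl* was not called without AL 1, AL 2, AL 4, CR 1 or CR 2, with log2 fold changes of -4.41 to -4.02 and adjusted p of 0.0537 to 0.109 by edgeR. With the parotid score in the model, the fold of *Per2* was 4 on the log2 scale, that of *Clock* -1.26 and that of *Arntl* -4.19, while that of *Ppargc1a* turned to -0.24. None of the 4 was called, with adjusted p of 0.118, 0.319, 0.361 and 0.942 in that order by the same edgeR test.

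Of 15 genes for mitochondrial proteins that SIRT3, SIRT4 or SIRT5 act on, 13 were tested and none was called. In the fit 12 of 13 were higher in CR, the median being 0.29 on the log2 scale, and 1 had an unadjusted p under 0.05. Over all genes tested, 48.9% were lower in CR, 16.7% had such a p and 1.98% were called. *Sod2*, the mitochondrial superoxide dismutase activated by SIRT3, was at 27.3 ± 7.45 CPM in AL and 38.5 ± 8.6 CPM in CR (SD, *n* = 4 each; log2 fold change 0.5, adjusted p = 0.306 by edgeR). *Idh2* and *Slc25a4* had log2 fold changes of 0.29 and 0.47, with adjusted p of 0.563 and 0.303 by the same edgeR test.

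Of 8 genes for nucleolar proteins and partners of SIRT7, all 8 were tested, 6 were higher in the fit with a median log2 fold change of 0.2, and none was called. At an unadjusted p under 0.05, 2 were higher, where 16.7% of all genes tested had such a p and 1.98% were called. *Ncl*, which encodes nucleolin, measured 167, 184, 185 and 176 CPM in the AL libraries (replicates 1 to 4) and 251, 282, 395 and 239 CPM in the CR libraries, with every CR library above every AL library. Its log2 fold change was 0.71 ± 0.2 (SE) with an adjusted p of 0.0927 by edgeR's quasi-likelihood test. It was called by DESeq2 (adjusted p = 0.0111), by limma voom (adjusted p = 0.0279) and, by edgeR, without CR replicate 4 (adjusted p = 0.0343), with the replicate number as a block (adjusted p = 0.0403) and with the log2 library total as a covariate (adjusted p = 0.0468). *Npm1*, which encodes nucleophosmin, and *Rrp9*, a ribosomal RNA processing factor that SIRT7 deacetylates, had log2 fold changes of 0.49 and 0.4, with adjusted p of 0.264 and 0.635 by edgeR. Over the 5 lists of NAD genes and partners, 54 of 72 genes were tested and 12 had an unadjusted p under 0.05, beside 16.7% of all genes tested.

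The zinc-dependent histone deacetylases, which remove acetyl groups without NAD, served as a family to set beside the sirtuins. Of 11, 10 were tested and 8 were higher in the fit, with a median log2 fold change of 0.19 and a range from -0.24 to 0.25. None was called or had an unadjusted p under 0.05, where 1.98% of all genes tested were called and 16.7% had such a p. *Hdac1*, *Hdac2* and *Hdac3* had log2 fold changes of 0.17, -0.24 and 0.14, and those of *Hdac4* and *Hdac7* were 0.25 and 0.2, with adjusted p between 0.65 and 0.876 by edgeR. The sirtuin values ranged wider, from -0.33 to 1.01, with the highest belonging to *Sirt5*, which was counted 119 times in all. The difference between the families was not tested.

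**Figure D4:**
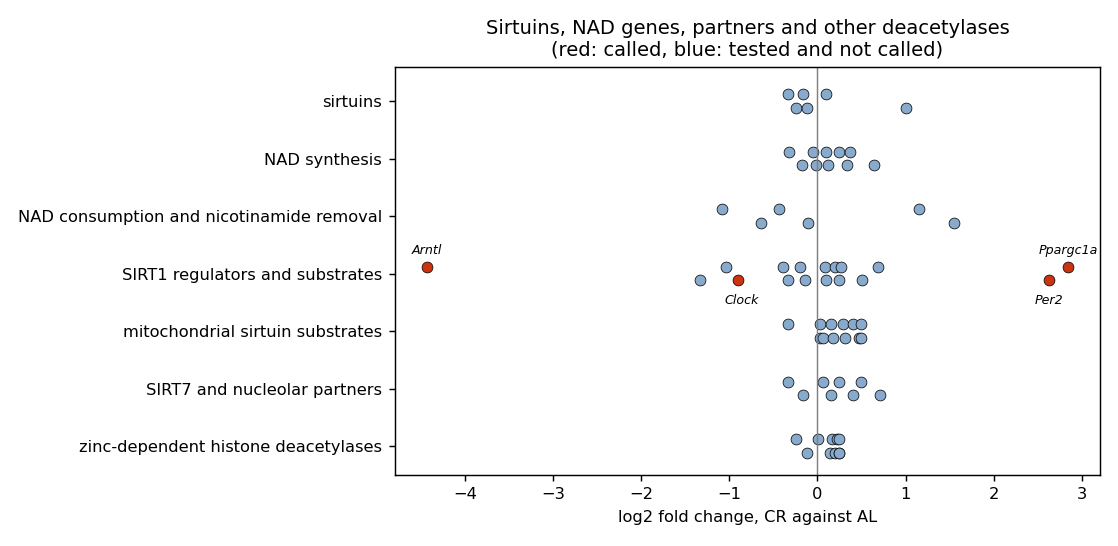
Log2 fold change of CR against AL (horizontal axis) for the sirtuins, the 5 lists of NAD genes and sirtuin partners, and the zinc-dependent histone deacetylases (rows). Each point is a tested gene, red where called and blue where not, with 1 mitochondrial gene that was not called left out, and the 4 red points, *Arntl*, *Clock*, *Per2* and *Ppargc1a*, all belong to the SIRT1 list.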

How the data were processed

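RNA from LGs of 4 AL and 4 CR mice was sequenced from 3′ ends. The authors used cutadapt for trimming, STAR for alignment to mm10 and HTSeq for counting per gene, in versions not given in the sources used here, and deposited the raw counts. The deposited log2 values, which the authors made from these counts with DESeq2's RLE factors, differed from a recomputation by at most 0.000124 and were not used further. Dropping 5 repeated symbols left 24552 genes, 16735 of them with a count and 11211 past filterByExpr. The members and the lists were chosen with earlier results of these data known.

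Counts were scaled by RLE factors and tested by the quasi-likelihood F test of edgeR 4.0.16 in R 4.3.3, on all 8 libraries without covariates, and p-values were adjusted by Benjamini-Hochberg over the whole set of genes tested. Calls needed an adjusted p under 0.05 together with a fold of 1.5 or more. Standard errors are the absolute log2 fold change over the root of F. The biological coefficient of variation was 34.7%. Totals ranged from 12051881 to 22156511 counts, and 3 counts were taken as the floor. Neighbours in the order of levels were compared by exact sign-flip permutation tests on log2 CPM with a prior count of 2. The labels name the libraries as separate samples, and p-values measure the spread between them.

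Named genes are all sirtuins, for each list the called members or otherwise the 3 with the smallest unadjusted p, further genes fixed by name (*Nampt*, *Cd38*, *Parp1*, *Ccar2*, *Ppargc1a*, *Foxo1*, *Foxo3*, *Sod2*, *Idh2*, *Hdac1*, *Hdac2*, *Hdac3*), and the 3 genes most like *Sirt2* by Pearson r. Positions and exon lengths come from GENCODE vM21 on GRCm38, the build of mm10, and promoters from RefSeq on GRCm38.p6. Alternatives were TMM factors, total counts, DESeq2 1.42.0, limma 3.58.1 voom with sample quality weights, dropping the low-count filter or asking for 10 counts in every library, the adjusted p alone, the replicate number as a block, a parotid score, averaged over the log2 CPM of its markers, as a covariate, and omission of single libraries. The log2 library total as a covariate was added after the data were seen. The script was tested on simulated counts. A gene of the mitochondrial list that the naming rule would give is counted with its list and otherwise not reported here.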

Additional observations from a re-analysis of the deposited data

Results flagged for a closer look

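In 5 of 64 sets of 4 libraries, each a named gene in 1 diet, 1 library stood apart from the other 3 by Dixon's criterion, which chance meets in about 5% of sets. *Sirt6* was at 1.78 CPM in AL 2 and between 0.609 and 0.802 CPM in the other AL libraries. The other 4 sets were partner genes. *Arntl* was at 0.681 CPM in CR 3 and between 0 and 0.0555 CPM in the other CR libraries. *Slc25a4* was at 17.1 CPM in CR 3 and between 11.9 and 12.4 CPM in the other CR libraries. *Npm1* was at 78.5 CPM in AL 4 and between 96.7 and 98.9 CPM in the other AL libraries. *Ccar2* was at 2 CPM in AL 1 and between 0.51 and 0.675 CPM in the other AL libraries. The causes were not tested.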

How the results depend on the processing

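The count of sirtuins called was 0 under each of the 18 alternatives run, with 7 tested without a filter and 4 with at least 10 counts in every library. At an unadjusted p under 0.05 it was 0 in each, except for 2 with the parotid score as a covariate. Over all genes, the 222 calls became 702 with DESeq2, 397 with limma voom, 436 without a filter on low counts, 3 with the parotid score and 632 with the log2 library total as covariates, and 61 to 700 when 1 library was left out (lowest without AL replicate 2, highest without CR replicate 4). With total counts in place of RLE factors, 123 genes were higher and 51 lower, against 134 and 88. The calls among the 54 NAD genes and partners, 4, became 0 with the parotid score, where the log2 fold change of *Ppargc1a* turned to -0.24 and those of *Per2* (4), *Clock* (-1.26) and *Arntl* (-4.19) kept their direction, and 1 to 7 with 1 library left out. The order of levels had 1 step past the threshold per kilobase, against 2, and 2 with any 1 library left out. Leaving out AL replicate 1, 2 or 3 put *Sirt5* above *Sirt6* and made *Sirt3* over *Sirt5* the second step, and *Sirt5* was also above *Sirt6* in the CR libraries alone. Within 1 diet no step could pass, since 4 libraries allow no p under 0.125. Libraries of the same replicate number had residual correlations of 0.0795 to 0.462, under 0.1 for replicate 2, and not every library correlated best with its own number, so they were not treated as pairs. With the replicate block, 700 genes, 6 NAD genes and partners and 0 sirtuins were called. The causes of these differences were not tested. The fewest counts stood behind *Sirt4* (61), *Sirt6* (116) and *Sirt5* (119), and in the main fit the intervals of all 6 sirtuins tested include both directions.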
